A study of Homo sapiens with 12 samples.

Results

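The genes described here are the zinc finger genes of human chromosome 19 in HEK 293T cells, a human embryonic kidney line, treated with PDP, a compound known here only by this code name. They were selected on the control FPKM, together with name and position: the genes whose symbol is ZNF followed by digits and an optional letter, whose locus lies on chromosome 19, and whose control value in the 3 h table was at least 1 FPKM (fragments per kilobase of transcript, scaled to library size). Of 58083 gene IDs in each RNA table, 261 were ZNF genes on chromosome 19, and 176 of these reached the floor. Since the same control stands under every fold change, counts and medians over them are descriptions. Just above the floor lay ZNF540 and ZNF547 with 1.02 and 1.06 FPKM in the control, and just below it ZNF66 and ZNF814 with 0.961 and 0.811 FPKM.

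Zinc finger genes form the largest family of transcription factor genes in the human genome, and chromosome 19 carries many of them in tandem clusters that arose by gene duplication. Most of the encoded proteins bind DNA through an array of fingers, and many carry a KRAB domain, which recruits the corepressor TRIM28 and, through it, the histone methyltransferase SETDB1. These complexes are known for silencing transposable elements and for keeping repressive chromatin over imprinted genes and over the zinc finger clusters themselves.

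The study addressed binding of a small molecule to G-quadruplexes, four-stranded structures of guanine-rich DNA, and transcripts of cells given PDP. Its 12 samples form 6 groups of 2: cells kept in 1 µM PDP until 3 h, until 24 h or until 72 h, cells given DMSO for 3 h, a pull-down from annealed genomic DNA, and its input. RNA libraries were made from poly(A) RNA. The authors' deposited tables give 1 pooled FPKM value per gene and condition, so single libraries cannot be seen, an SD between replicates cannot be given and library depths are unknown. The labels do not say whether the replicates came from separate cultures. A gene is named "called" below where the authors' deposited table of that time point gives it a q-value under 0.05, and the standard error (SE) of a log2 fold change is the one implied by the statistic in that table. This SE and the authors' q-values do not always go together. ZNF582 at 24 h had a log2 fold change of -1.59 with an SE of 0.95 and was called (q = 0.0267). ZNF837 at 72 h had -4.67 with an SE of 1.93 and was not called (q = 0.396). Calls therefore cannot be read off the SE.

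Control values of the 24 h and 72 h tables were those of the 3 h table multiplied by 1.04 and 0.968 (SD 0.000842 and 0.00086 on the log2 scale). PDP values at 24 h and 72 h are therefore printed on the scale of the 3 h table, beside 1 control value per gene. The 3 fold changes share this control, and an effect of PDP at 24 h or 72 h cannot be told apart from a change over time in culture. Scaling both conditions to equal FPKM sums would add 0.17 to every log2 fold change at 24 h and -0.10 at 72 h. The line's own markers were present, with 259 FPKM of VIM and 39.1 FPKM of NEFM in the control. PAX2 stood at 0.896 FPKM, and of 8 markers of blood, liver, fibroblasts and differentiated kidney only COL1A1 exceeded 0.1 FPKM in the control, and it had 9.91, 21.95 and 23.8 FPKM with PDP at 3 h, 24 h and 72 h, against 12.6 FPKM in the control. Some markers moved with PDP: at 72 h NEFM stood at 156 FPKM and KRT8 at 86.6 FPKM, against 39.1 and 35.6 FPKM in the control, while the 7 other markers of foreign cell types stayed at or below 0.777 FPKM at every time and HBB and UMOD at 0. The part of such shifts in the values below was not tested. In these bulk samples, fewer cells of a type and less RNA per cell cannot be told apart.

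Most chromosome 19 zinc finger genes had lower transcript levels with PDP at 24 h and 72 h than in the control, and none was called at 3 h. The median level of the 176 genes was 4.31, 3.70 and 2.71 FPKM with PDP at 3 h, 24 h and 72 h, against 4.58 FPKM in the control. In the authors' deposited tables the lower calls at 24 h numbered 16, with 0 higher (beside 8.29% lower and 9.21% higher of all genes tested), and the calls at 72 h were 59 lower and 7 higher (beside 12.8% and 19%). The levels were low throughout: the highest value in the control was 122 FPKM, and the lower and upper quartiles were 2.55 and 7.54 FPKM.

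At 3 h the median log2 fold change was -0.02, against -0.01 for all 13455 genes past the same floor, and the authors' deposited table called 0.115% of all genes tested, 0.108% higher and 0.00678% lower. ZNF738, with a log2 fold change of -0.40 (SE 0.28), was the one ZNF gene of chromosome 19 with an unadjusted p under 0.05 in the authors' deposited table, which gives it a q-value of 1. The direction of the 3 h median turned to 0.04 under scaling to equal sums.

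At 24 h 142 of the 176 genes, or 80.7%, had a log2 fold change below 0, against 55.3% of all genes past the floor. Their median was -0.32, with quartiles of -0.55 and -0.10, beside a median of -0.06 for all genes past the floor. Scaling to equal sums made the median -0.15. The 16 genes called lower made up 9.09% of those tested, and the authors' deposited table called 8.29% of all genes lower and 9.21% higher at this time. The share called lower was thus near that of all genes, and no ZNF gene of chromosome 19 was among the higher calls. Of 2627 genes tested whose control FPKM lay between the quartiles of the ZNF genes, 2.40% were called lower and 17.7% higher. An unadjusted p under 0.05 stood beside 44 of the 176 chromosome 19 ZNF genes in the authors' deposited table, 42 of them lower. Among all genes past the floor it stood beside 3960 of 13410 tested, 2162 of them lower.

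At 72 h 137 genes, or 77.8%, had a log2 fold change below 0, against 46.5% of all genes past the floor. The median was -0.65, with quartiles of -1.13 and -0.10, beside 0.06 for all genes past the floor. The authors' deposited table called 33.5% of the chromosome 19 ZNF genes lower and 3.98% higher, and 12.8% of all genes tested lower and 19% higher. Between the PDP samples themselves, a comparison that uses the control only to set 1 scale factor, the median log2 ratio of 72 h over 24 h was -0.29 for these genes and 0.10 for all genes past the floor. With equal FPKM sums the ratio for the ZNF genes was -0.56. In 122 of 176 genes the 72 h value was the lower of the 2.

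Other ZNF genes were also lower, and other genes of the chromosome or of like level had medians nearer to 0 or above it. The 225 ZNF genes on other chromosomes past the floor had a median of -0.22 (24 h) and -0.33 (72 h), and the authors' deposited tables called 33 lower and 14 higher at 24 h, and 66 lower and 32 higher at 72 h. The lower calls were 14.7% of those tested at 24 h and 29.3% at 72 h, against 9.09% and 33.5% of the chromosome 19 ZNF genes. The higher calls were 6.22% and 14.2%, against 0% and 3.98%. The 772 other genes of chromosome 19 had medians of -0.06 and 0.17, with 85 lower and 185 higher calls at 72 h. The 101 other genes inside the spans of the clusters described next had a median of 0.13 at 72 h, with 9 lower and 16 higher calls. A further 2634 genes whose control FPKM lay between 2.55 and 7.54, the range between the quartiles of the chromosome 19 ZNF genes, had a median of 0.28 (24 h) and 0.24 (72 h). These differences between groups of genes were not tested, since 1 pooled value per condition leaves no replicate to test them with. Within the ZNF genes of chromosome 19, 3 classes of control level, near equal in size, had medians of -0.76, -0.66 and -0.40 at 72 h from low to high, with a median SE of 0.80, 0.55 and 0.45, and 18 of 59, 16 of 58 and 25 of 59 were called lower. At 24 h the same classes had medians of -0.30, -0.29 and -0.42 with 3, 4 and 9 called lower, so that the order of the medians was not the same at both times. The classes are cut on the control value that also selected the genes and enters the fold change.

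**Figure D1:**
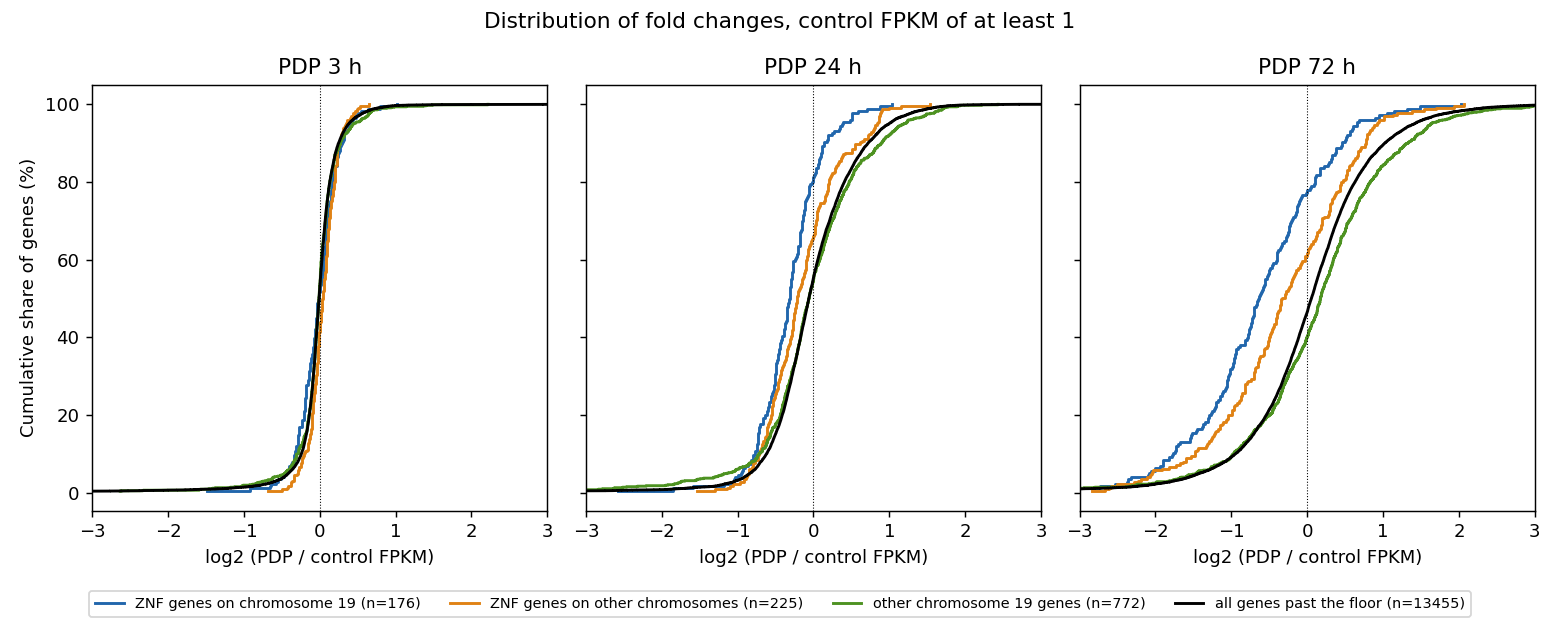
Cumulative share of genes (%, vertical axis) by log2 fold change of PDP over the control (horizontal axis) at 3 h, 24 h and 72 h, for genes with a control FPKM of at least 1. At 3 h 52.3% of the 176 chromosome 19 ZNF genes fall below 0, beside 41.3% of ZNF genes on other chromosomes and 52.5% of all genes. The line of the chromosome 19 ZNF genes lies to the left of the others at 24 h and 72 h, where 80.7% and 77.8% of these genes fall below 0.

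The clusters in which these genes lie differed in their medians at 72 h. Runs of ZNF genes with no gap over 1 Mb between neighbouring loci gave 17 runs, 8 of them with at least 5 of the 176 genes. These 8 clusters are lettered A to H from the end of the short arm to the end of the long arm and hold 163 of the genes; the other 13 lie outside them. All positions are of GRCh38. Clusters A (7.07 to 9.79 Mb), B (11.5 to 12.6 Mb) and C (19.7 to 24.1 Mb) lie on the short arm. Clusters D (34.54 to 34.96 Mb), E (36.2 to 37.8 Mb), F (43.5 to 45.3 Mb), G (51.6 to 53.6 Mb) and H (55.5 to 58.5 Mb) lie on the long arm.

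The lowest cluster medians at 72 h were those of D, with -1.27 over 5 genes, and G, with -1.10 over 26 genes. The authors' deposited table called 4 of 5 genes of D and 15 of 26 genes of G lower. Cluster F had a median of -0.78 with 8 of 19 genes called lower, and cluster H, which holds 48 genes, a median of -0.70 with 16 called lower. The other medians lay between -0.47 and -0.39: 4 of 12 genes were called lower in A, none of 12 in B, 5 of 17 in C and 3 of 24 in E. Over whole arms, the authors' deposited table called 49 of 130 genes of the long arm and 10 of 46 of the short arm lower at 72 h, with medians of -0.70 and -0.37. The spread between the highest and lowest cluster median was 0.88, and 0.37 when gaps of up to 2 Mb were allowed within a cluster. Differences between clusters were not tested.

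At 24 h the order of the clusters was flatter. Cluster B had a median of -0.03, with 6 of its 12 genes below 0, and the other 7 clusters lay between -0.42 in G and -0.26 in A. In cluster F 18 of 19 genes were below 0 at 24 h, in G 23 of 26 and in H 42 of 48. Precision differed as well: genes of cluster B had a median of 2.21 FPKM in the control and a median SE of 0.61 at 72 h, whereas genes of cluster A had 12.5 FPKM and an SE of 0.42. The part of level in the lack of calls in cluster B was not tested. From 24 h to 72 h with PDP, cluster D had a median log2 ratio of -1.13 and G of -0.64, with the 72 h value lower in 5 of 5 and 22 of 26 genes. Clusters A, C and E had ratios between -0.10 and -0.06.

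**Figure D2:**
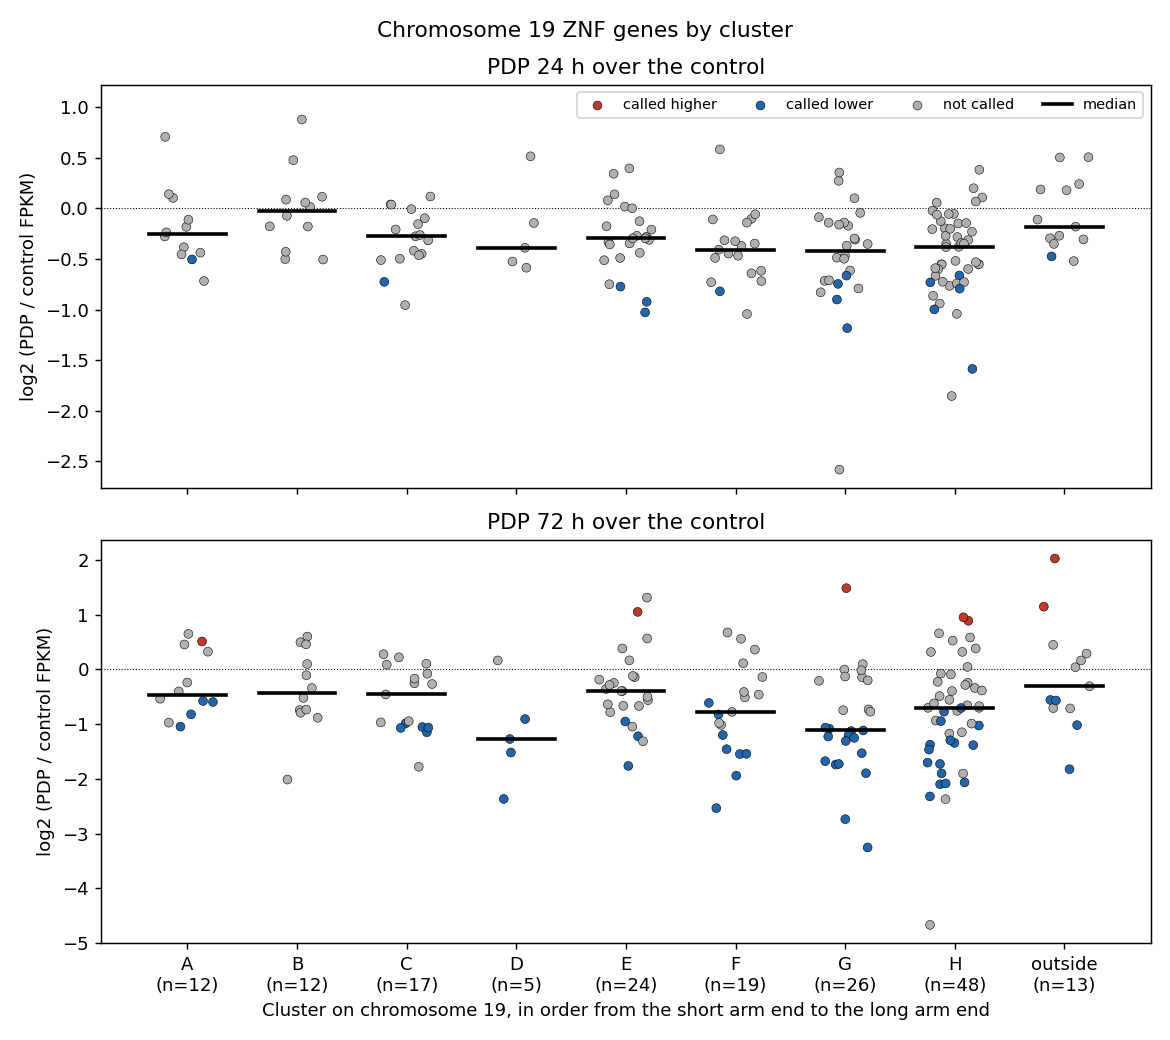
Log2 fold change of PDP over the control (vertical axes) for each chromosome 19 ZNF gene at 24 h (top) and 72 h (bottom), by cluster in order along the chromosome (horizontal axis), with genes outside the clusters at the right. Points are genes coloured by the authors' call and bars are medians, which at 72 h are lowest in D (-1.27) and G (-1.10).

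Cluster G shows how neighbours within a cluster differed. ZNF701 (ENSG00000167562.11, in a locus of chromosome 19 from 52527652 to 52587174 that holds 4 genes) encodes a KRAB zinc finger protein. It had 3.17, 1.59 and 0.542 FPKM with PDP at 3 h, 24 h and 72 h, against 3.61 FPKM in the control. The authors' deposited tables called it lower at 24 h (log2 fold change -1.18, SE 0.43, q = 0.000908) and at 72 h (-2.74, SE 0.90, q = 0.000393). ZNF160 (ENSG00000170949.17, 53066606 to 53103436, alone in its locus) encodes a KRAB protein described as a repressor of the innate immune receptor gene TLR4. It had 4.38, 6.55 and 14.4 FPKM with PDP at 3 h, 24 h and 72 h, against 5.13 FPKM in the control. The authors' deposited table called it higher at 72 h (log2 fold change 1.49, SE 0.46, q = 0.000393). It was the one gene of cluster G called higher. Of the genes on either side of it among those past the floor, ZNF816 had a log2 fold change of -0.77 at 72 h and was not called, and ZNF765 fell to 1.59 FPKM with PDP at 72 h, against 5.26 FPKM in the control (-1.73, SE 0.59, q = 0.000393 in the authors' deposited table).

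Promoter windows of these and other named genes are shown because the compound series concerns guanine-rich DNA and the genes moved in different directions. Each is a RefSeq window (GRCh38.p14, whose chromosome coordinates do not differ from those of earlier GRCh38 patches) from 250 bases before to 50 after a transcription start, on the gene's own strand, 5′ to 3′. Capitals mark a motif of 4 runs of GGG, or of CCC for the opposite strand, with 1 to 7 bases of any kind (N) between runs. ZNF701 lies on the plus strand (chr19:52570037-52570336) and ZNF160 on the minus strand (chr19:53103373-53103672), and each has a second window without the motif. ZNF333 (chr19:14689798-14690097) and ZNF146 (chr19:36214856-36215155), described further on, lie on the plus strand, and their windows hold no such motif.
ZNF701: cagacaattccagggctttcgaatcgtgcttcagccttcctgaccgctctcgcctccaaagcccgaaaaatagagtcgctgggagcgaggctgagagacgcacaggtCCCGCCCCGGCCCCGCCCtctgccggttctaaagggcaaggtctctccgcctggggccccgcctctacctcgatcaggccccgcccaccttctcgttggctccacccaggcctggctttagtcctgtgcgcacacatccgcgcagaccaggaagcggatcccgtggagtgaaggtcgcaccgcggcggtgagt
ZNF160: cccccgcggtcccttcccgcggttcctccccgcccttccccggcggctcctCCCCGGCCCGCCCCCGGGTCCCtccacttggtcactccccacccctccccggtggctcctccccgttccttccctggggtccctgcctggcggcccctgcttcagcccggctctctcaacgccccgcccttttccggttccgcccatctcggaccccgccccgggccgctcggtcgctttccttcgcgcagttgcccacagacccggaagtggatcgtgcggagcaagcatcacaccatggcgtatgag
ZNF333: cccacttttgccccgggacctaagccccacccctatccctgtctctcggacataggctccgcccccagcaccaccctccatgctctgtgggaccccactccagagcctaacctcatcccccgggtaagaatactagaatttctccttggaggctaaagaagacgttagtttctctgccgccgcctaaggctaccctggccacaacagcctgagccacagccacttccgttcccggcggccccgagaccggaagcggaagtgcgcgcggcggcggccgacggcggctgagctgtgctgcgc
ZNF146: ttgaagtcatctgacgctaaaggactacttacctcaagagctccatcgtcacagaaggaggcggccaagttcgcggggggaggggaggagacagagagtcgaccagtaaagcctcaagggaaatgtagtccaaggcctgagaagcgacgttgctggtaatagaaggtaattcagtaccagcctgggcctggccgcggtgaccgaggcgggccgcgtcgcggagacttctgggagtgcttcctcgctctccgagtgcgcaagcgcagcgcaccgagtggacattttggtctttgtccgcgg
The motif stretch of ZNF701 and that of ZNF160 are both on the strand opposite to the gene, and GC content was 65% and 72.7% in these windows, 64.3% in that of ZNF333 and 59% in that of ZNF146. A match is a description of the letters and does not show a G-quadruplex.

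The motif was rarer in these promoters than in those of their chromosome. Windows were found by symbol for 156 of the 176 genes, 193 windows in all, and 34 held the motif on either strand, or 17.6% (exact 95% interval 12.5 to 23.7). Of 246 windows of ZNF genes on other chromosomes 17.1% held it (12.6 to 22.4), of 782 windows of other chromosome 19 genes 40.7% (37.2 to 44.2), and of all 35116 windows listed 24.9% (24.4 to 25.3). The interval of the chromosome 19 ZNF genes and that of the other chromosome 19 genes do not overlap. A gene can have several windows, and windows of neighbouring genes can overlap. Windows are therefore not separate cases, and these intervals may be too narrow. The difference between these groups was not tested. Median GC content was 61.3% in the windows of the chromosome 19 ZNF genes and 66.3% in those of the other chromosome 19 genes. It was 62.7% in the windows of ZNF genes on other chromosomes and 58.7% in all windows. The 30 chromosome 19 ZNF genes with the motif in a window had a median of -0.22 (log2, 72 h), with 8 called lower and 4 higher in the authors' deposited table. The 126 with windows but no motif had a median of -0.69, with 44 called lower and 2 higher. This difference was not tested.

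Pull-down peaks, merged over both replicates by the authors, were absent from these windows. None of the 193 windows overlapped any of the authors' 51446 peaks, which allows a share of up to 1.55% by a limit of 3 counts, or 1.89% by the exact 95% interval, beside 0.767% of windows of other chromosome 19 genes (6 of 782) and 0.572% of all windows. Whole loci did hold peaks. The 176 genes lie in 131 loci, of which 60 held the centre of a peak, or 45.8% (exact 95% interval 37.1 to 54.7), beside 51.0% for ZNF genes on other chromosomes (44.0 to 57.9), 42.8% for other chromosome 19 genes (38.6 to 46.9) and 55.9% for all loci past the floor (54.9 to 56.9). Loci differ in length, with medians of 31.2 kb for these genes and 47.4 kb for all. Per Mb of locus the values were 19.9 peaks (exact Poisson interval 16.8 to 23.5), 16.4 (14.4 to 18.6), 22.2 (20.2 to 24.3) and 19.6 (19.3 to 19.8) in the same order. The intervals cover counting error only.

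**Figure D3:**
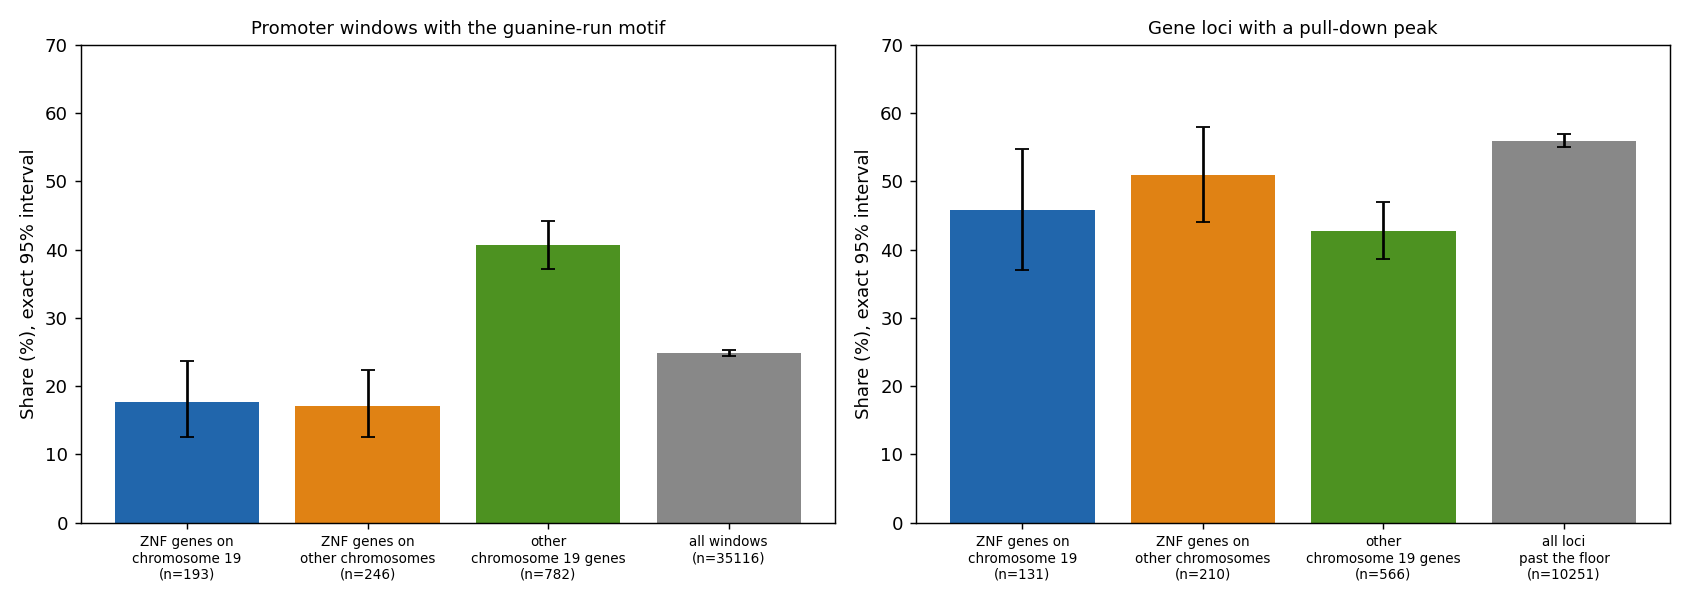
Share (%) of promoter windows holding the guanine-run motif (left) and of gene loci holding a pull-down peak (right) in 4 groups of genes (horizontal axes). Bars start at 0 and error bars are exact 95% intervals; the chromosome 19 ZNF genes stand at 17.6% and 45.8%, and the other chromosome 19 genes at 40.7% and 42.8%.

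Among clusters, the share of loci with a peak ran from 0 of 5 in D to 5 of 8 in B, with intervals that overlap throughout. The neuronal regulator gene ZNF536, outside the clusters, lies in a locus of 4 genes with 29 peaks, more than any other of these loci. That locus spans 0.494 Mb and holds 29 of the 142 peaks behind the 19.9 per Mb given above. The Poisson interval takes no account of such clumping. Genes with a peak in their locus numbered 94, with a median of -0.29 (24 h) and -0.56 (72 h), and the 82 without one had medians of -0.35 and -0.76. Lower calls in the authors' deposited tables numbered 11 among the 94 and 5 among the 82 at 24 h, and 21 and 38 at 72 h, so the order of the shares turned between the times. This difference was not tested. Since a locus can hold several genes, a peak in it need not lie in the ZNF gene itself. Genes of 1 locus share its peaks and are not separate cases, and most genes with a peak shared their locus. Of the 50 genes alone in their locus 48% were called lower at 72 h (median SE 0.47). Of the 126 that share a locus 27.8% were (median SE 0.60). The part of locus sharing in the split by peak was not tested.

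The abundant members included genes that fell and genes that were not called. ZNF146 (ENSG00000167635.11, cluster E, locus from 36182060 to 36246257), whose protein consists almost entirely of fingers and lacks a KRAB domain, was the most abundant. It had 120 FPKM with PDP at 3 h, 64.6 at 24 h and 63.3 at 72 h, against 122 FPKM in the control. The authors' deposited tables called it lower at 24 h (log2 fold change -0.92, SE 0.33, q = 0.000908) and at 72 h (-0.95, SE 0.33, q = 0.000393). Its value at 72 h was thus close to that at 24 h, with a log2 ratio of -0.03. ZNF121 of cluster A had 42.7, 38.3 and 29.9 FPKM with PDP at 3 h, 24 h and 72 h, against 45.2 FPKM in the control, and was called lower at 72 h in the authors' deposited table (-0.59, SE 0.24, q = 0.00163). ZNF302, a KRAB gene of cluster D, had 23.3, 16.5 and 7.55 FPKM at the 3 times, against 21.6 FPKM in the control, and was also called lower at 72 h (-1.52, SE 0.37, q = 0.000393).

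The most abundant genes of cluster H were not called lower. ZNF444, which encodes a SCAN domain protein, had 24.6, 22.7 and 22.6 FPKM with PDP, against 26.7 FPKM in the control, and was not called at any time. The neighbours ZNF581 and ZNF580 share a locus and stood at 34.5 and 31.1 FPKM with PDP at 72 h, against 23.0 and 16.1 FPKM in the control. The authors' deposited table called ZNF580 higher (log2 fold change 0.95, SE 0.44, q = 0.0052) and not ZNF581 (0.59, SE 0.37, q = 0.0696). The most abundant genes of clusters B, C and F, ZNF791, ZNF714 and ZNF428, had log2 fold changes of -0.10, -0.25 and 0.11 at 72 h and were not called. ZNF480 in cluster G fell to 7.08 FPKM with PDP at 72 h, against 16.3 FPKM in the control (-1.20, SE 0.50, q = 0.00624 in the authors' deposited table).

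The largest called decreases at 24 h were in ZNF582, ZNF701, ZNF566, ZNF587B and ZNF146. ZNF582, a KRAB gene of cluster H known for promoter methylation in cancers, had 2.73, 0.817 and 1.45 FPKM with PDP at 3 h, 24 h and 72 h, against 2.45 FPKM in the control. It was called lower at 24 h in the authors' deposited table (log2 fold change -1.59, SE 0.95, q = 0.0267) and not at 72 h (-0.76, SE 0.82). ZNF566 in cluster E had 3.97 and 3.47 FPKM with PDP at 24 h and 72 h, against 8.10 FPKM in the control (-1.03, SE 0.48 and -1.22, SE 0.47, called both times). ZNF587B in cluster H had 4.32 and 3.12 FPKM, against 8.62 FPKM in the control (-0.998, SE 0.52 and -1.46, SE 0.56, called both times). ZNF587B has a close copy in its neighbour ZNF587, so how reads were split between them is uncertain. In general the tandem copies of these clusters are alike in sequence, and how reads that match several of them were counted is not given in the sources used here.

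At 72 h the largest called decreases lay in clusters G, F, D and H. ZNF137P, a transcribed pseudogene of cluster G, stood at 0.304 FPKM with PDP, against 2.90 FPKM in the control, with an SE of 1.94 on a log2 fold change of -3.25 (q = 0.0317 in the authors' deposited table). ZNF225, a KRAB gene of cluster F, had 0.516 FPKM with PDP at 72 h and 2.40 at 24 h, against 2.99 FPKM in the control (-2.53 at 72 h, SE 0.93). ZNF181, a KRAB gene of cluster D, had 1.59 FPKM at 72 h and 5.47 at 24 h, against 8.21 FPKM in the control (-2.37 at 72 h, SE 0.55). ZNF549, a KRAB gene of cluster H, had 0.43 FPKM at 72 h and 1.26 at 24 h, against 2.15 FPKM in the control (-2.32 at 72 h, SE 0.74). The authors' deposited tables called all 3 lower at 72 h and not at 24 h. The lowest fold change of all, -4.67 for ZNF837 in cluster H, rested on 0.055 FPKM with PDP, against 1.40 FPKM in the control, and was not called (SE 1.93, q = 0.396 in the authors' deposited table).

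The authors' deposited tables called 7 genes higher, all at 72 h. A larger value did not always bring a call: ZNF585A of cluster E had 18.7 FPKM with PDP at 72 h, against 7.54 FPKM in the control, and was not called (log2 fold change 1.31, SE 0.91, q = 0.107 in the authors' deposited table). ZNF333 (ENSG00000160961.11, in a locus of 5 genes from 14619117 to 14778541, outside the clusters), a KRAB gene, had 3.75 and 4.06 FPKM with PDP at 3 h and 24 h and 14.6 FPKM at 72 h, against 3.57 FPKM in the control. The authors' deposited table called it higher at 72 h (log2 fold change 2.03, SE 0.44, q = 0.000393). ZNF536, which encodes a repressor of neuronal differentiation genes, had 1.02, 2.26 and 3.54 FPKM at the 3 times, against 1.59 FPKM in the control (1.15 at 72 h, SE 0.58, q = 0.0162 in the authors' deposited table). ZNF571 of cluster E stood at 7.38 FPKM with PDP at 72 h, against 3.56 FPKM in the control (1.05, SE 0.55, q = 0.0347 in the authors' deposited table). The other 2 genes called higher were ZNF358 (0.51) and ZNF628 (0.89). Of the 7 genes called higher, only ZNF160 was alone in its locus in the tables; the others share theirs with further genes, so their read assignment is less certain.

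**Figure D4:**
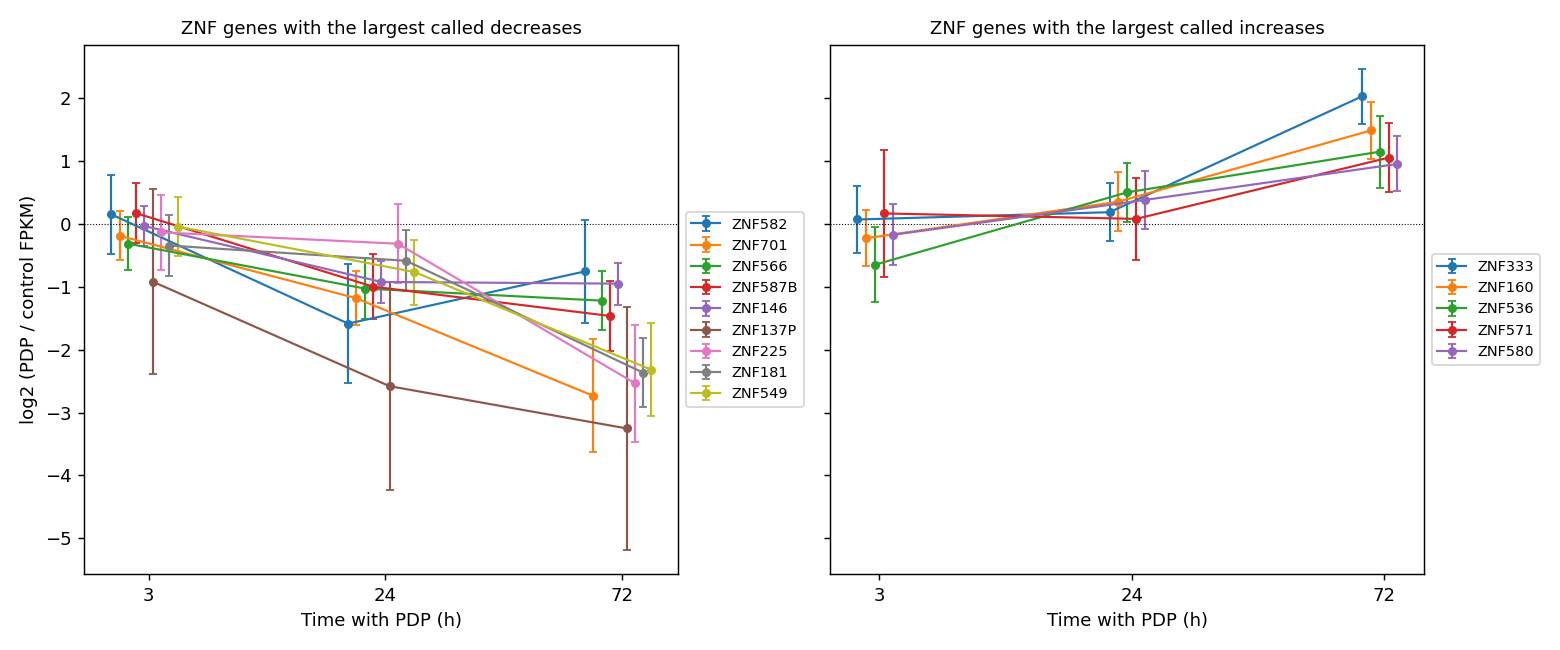
Log2 fold change of PDP over the control (vertical axes) at 3 h, 24 h and 72 h (horizontal axes, evenly spaced) for the chromosome 19 ZNF genes with the largest called decreases (left) and increases (right). Points are fold changes from pooled FPKM and error bars the implied SE; at 72 h the values run from -3.25 for ZNF137P to 2.03 for ZNF333.

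Genes with a known function were looked up by name, with results of these data already known. ZNF274, which binds the ends of zinc finger genes and recruits SETDB1 there, had 12.1, 8.10 and 6.10 FPKM with PDP at 3 h, 24 h and 72 h, against 11.7 FPKM in the control, and was called lower at 72 h in the authors' deposited table (-0.94, SE 0.42, q = 0.00909). ZNF91, a repressor of SVA retrotransposons, had 3.72 FPKM at 72 h, against 4.48 FPKM in the control, and was not called (-0.27, SE 0.60). ZNF224, a repressor of the aldolase A gene, fell to 8.29 FPKM with PDP at 72 h, against 14.7 FPKM in the control (-0.82, SE 0.46, q = 0.0367 in the authors' deposited table). ZNF304, linked to silencing of tumour suppressor genes in colorectal cancer cells, had 3.47 and 2.12 FPKM at 24 h and 72 h, against 5.49 FPKM in the control, and was called lower at both times (-0.66, SE 0.25 and -1.37, SE 0.26). ZNF350, a partner of BRCA1 in repression, was not called (-0.74 at 72 h, SE 0.99).

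Pairs that share a promoter did not always have the same call. In 7 pairs of chromosome 19 ZNF genes, promoter windows on opposite strands overlapped, 6 of them in cluster E and 1 in cluster B. ZNF829 had log2 fold changes of -0.77 at 24 h and -1.76 at 72 h and was called lower both times in the authors' deposited tables (SE 0.39 and 0.52). Its divergent neighbour ZNF568 had 0.00 and -0.64 and was not called (SE 0.57 and 0.63). ZNF146, called lower at both times, is paired with ZNF565, which had 1.77 FPKM in the control and log2 fold changes of -0.51 and -0.14 (SE 1.93 and 2.38). None of the other 10 genes in these pairs was called at 24 h or 72 h. Whether the members of a pair differ from each other was not tested.

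Of the genes that act with KRAB proteins, those for histone and DNA methylation were called in both directions. A list of 28 corepressor and heterochromatin genes had 1 called higher at 3 h, 1 higher and 5 lower at 24 h, and 5 higher and 7 lower at 72 h in the authors' deposited tables. At 24 h this is 3.57% higher and 17.9% lower, beside 9.21% and 8.29% of all genes tested, and at 72 h 17.9% higher and 25% lower, beside 19% and 12.8%. Its median log2 fold changes were -0.01, -0.14 and 0.01. TRIM28, the corepressor that KRAB domains bind, had 216, 151 and 172 FPKM with PDP at 3 h, 24 h and 72 h, against 221 FPKM in the control, and was not called (-0.55, SE 0.46 at 24 h and -0.36, SE 0.41 at 72 h). SETDB1 was not called either, with 43.6 FPKM at 72 h, against 34.1 FPKM in the control (0.35, SE 0.61).

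TRIM24, a bromodomain relative of TRIM28, fell to 18.6 FPKM at 24 h and 8.81 FPKM at 72 h, against 29.4 FPKM in the control (-0.66, SE 0.24 and -1.74, SE 0.24, called both times in the authors' deposited tables). UHRF1, which brings the maintenance DNA methyltransferase to replicating DNA, fell to 56.3 and 38.5 FPKM, against 87.3 FPKM in the control (-0.63, SE 0.20 and -1.18, SE 0.20). The H3K9 methyltransferase genes SUV39H1 and SUV39H2 were called lower at both times, with log2 fold changes of -0.64 and -0.69 at 72 h (SE 0.27 and 0.29). The DNA methyltransferase gene DNMT3B was called higher at both times, with 0.49 at 24 h and 0.34 at 72 h (SE 0.20 each). Also called at 72 h were HDAC1, CBX1 and ATF7IP2, all higher, and MPHOSPH8 and FAM208A, both lower. SMARCAD1, a chromatin remodeller that works with TRIM28, fell to 11.96 FPKM at 72 h, against 24.97 FPKM in the control (-1.06, SE 0.31), and CHD3, a helicase of the NuRD complex, rose to 52.7 FPKM, against 26.6 FPKM in the control (0.99, SE 0.44). The single call at 3 h was EHMT1, with 1137 FPKM with PDP against 30.3 FPKM in the control in the authors' deposited table (log2 fold change 5.23, SE 0.32, q = 0.0434). Its values of 27.6 FPKM at 24 h and 28.5 FPKM at 72 h were not called. With 1 pooled value per condition, it cannot be seen whether a single library carries the 3 h value of EHMT1.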

How the data were processed

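RNA was measured from poly(A) libraries of HEK 293T cells with PDP (3 groups) and DMSO (1 group), with 2 samples per group. Per the submitters' processing notes, HISAT2 2.0.5, Cufflinks 2.2.1 and, for the pull-down, Bowtie2 2.2.9 and HOMER 4.9.1 were used on GRCh38.p7; their settings are not given in the sources used here. The tables deposited by the authors give FPKM per condition, replicates pooled, with the p-value and q-value of their test. Their test statistic, a score deposited by the authors, served only to derive an SE, as log2 fold change over the statistic; the peak score in the authors' deposited list served only as an alternative.

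Log2 fold changes were computed from FPKM, with no value at 0 among these genes. No test was run beyond the authors' own, since 1 pooled value per condition holds no replicates; p-values are the authors', over all genes. Locus starts were counted from 1. Peaks were assigned by their centre. Intervals are Clopper-Pearson or exact Poisson at 95% and cover counting error only. Planned counts of protein motifs were not run, since no protein sequences were used here.

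Genes and lists were chosen with earlier results of these data known. Named genes were the 5 largest called changes each way at 24 h and 72 h, up to 5 called at both, the 5 most abundant, the most abundant per cluster, those next to the floor, and up to 4 called partners per time. ZNF738, ZNF585A, ZNF837, ZNF816, ZNF358, ZNF628, the further called partners, the genes of known function and the pairs were chosen after their values were seen. Summaries were tested on simulated data. Versions were Python 3.11.15, SciPy 1.17.1, pandas 2.3.3, Matplotlib 3.10.9 and NumPy 2.4.6.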

Additional observations from a re-analysis of the deposited data

How the results depend on the processing

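No paired analysis was possible because the tables hold 1 pooled value per condition; for the same reason no replicate could be left out. Of 88 recomputed values, 70 stayed within a tolerance and 18 moved. The counts of calls at 3 h and of higher calls at 24 h were 0. A stricter cut or a smaller set could only give 0 again, so those recomputed values do not bear on stability. The tolerance was 1.5-fold for counts and spreads, and the 95% interval of the value itself for medians over genes and the share of loci. For medians this interval takes genes as separate draws, although 126 of the 176 lie in a locus with other genes and all share the control. It served only as a tolerance. The 3 h median, near 0, changed sign within its interval. At q under 0.01 the authors' deposited tables called 6 genes lower at 24 h, and 43 lower and 3 higher at 72 h. With a log2 change of at least 1 the counts were 3 lower at 24 h, and 46 lower and 4 higher at 72 h. Shares of all genes at these stricter cuts were not computed, so these counts have no background beside them. Restricted to genes alone in their locus, which leaves 50 genes, they were 3 lower at 24 h, and 24 lower and 1 higher at 72 h. As shares these were 6%, 48% and 2%, against 9.09%, 33.5% and 3.98% of all 176 genes. This restriction and a higher floor leave fewer genes, so a count can move through the size of the set alone. A control floor of 5 FPKM left 32 lower and 3 higher at 72 h and gave a 24 h median of -0.40. A pseudocount of 1 FPKM gave medians of -0.25 at 24 h and -0.48 at 72 h. Scaling to equal sums gave -0.15 at 24 h and -0.56 for 72 h over 24 h, and the 24 h median relative to all genes past the floor was -0.25. With a gap of 2 Mb the highest and lowest cluster medians differed by 0.21 at 24 h and 0.37 at 72 h, against 0.39 and 0.88 with 1 Mb. With peaks above the median score alone, 26.7% of loci held a peak. No median at 24 h or 72 h changed sign under these settings. An alternative added after seeing the data, leaving out 4 genes with the suffix P, gave 16 lower at 24 h and 58 lower at 72 h. The median SE was 0.62 at 24 h and 0.80 at 72 h in the scarcest of the 3 level classes. In that class 18 of 59 genes were called lower at 72 h, beside 16 of 58 in the middle class and 25 of 59 in the highest. The part of level in the calls was not tested.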

Other observations

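Other finger gene families of chromosome 19 were not part of the ZNF set. Of 6 ZSCAN and ZFP genes past the same floor, the authors' deposited tables called 1 lower at 24 h, and 1 lower and 2 higher at 72 h. ZSCAN22, a SCAN domain gene, fell to 1.55 FPKM with PDP at 24 h and 0.518 FPKM at 72 h, against 2.47 FPKM in the control (log2 fold changes -0.68, SE 0.30, and -2.26, SE 0.39). ZFP28, a KRAB gene, rose to 2.84 FPKM at 72 h, against 1.52 FPKM in the control (0.91, SE 0.46). ZFP36, which encodes an RNA-binding protein of another finger type that destabilises inflammatory mRNAs, rose to 11.3 FPKM at 72 h, against 1.55 FPKM in the control (2.86, SE 0.66). The 3 antisense RNA genes named after chromosome 19 ZNF genes passed the floor and were not called; their SE lay between 0.89 and 2.46 at 24 h and 72 h, and whether the counting used strand is not given in the sources used here. These genes were chosen after their values were seen.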
